A study of Mesocricetus auratus with 6 samples.

Results

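Lysosomal enzymes and membrane proteins were compared between the places where a blastocyst had attached to the hamster uterus and the uterine segments between them. The list named 42 genes: 10 cathepsins and legumain, 16 other hydrolases and soluble proteins of the lysosomal lumen, and 16 membrane proteins including the proton pump. Of these, 40 were measured, among 12393 genes in all. Each was measured by at least 1 probe set (a group of short probes against 1 transcript) to which the platform annotation gave that gene symbol alone. No such probe set was listed for Cd63, a tetraspanin of late endosomes, or for Atp6v0c, the proton-carrying ring subunit of the pump, and both genes were not analysed here. Where a gene had several probe sets, the one with the highest mean over all arrays stood for it.

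The samples were uteri of untreated pregnant Syrian golden hamsters (Mesocricetus auratus) on day 5, with 3 arrays of embryo implantation sites and 3 of interimplantation sites, which hold no embryo. Both groups were whole uterine tissue from the same day, and strain, age and genotype are not given in the sources used here. Per the series' design text the RNA came from 3 different animals, so the spread within a group was taken as that between animals. The labels do not say whether arrays of both groups with the same number share an animal. If both groups came from the same animals, matched by number or not, the p-values of the main fit ignore that pairing. Group was the only term of that fit. Signals are on the log2 scale of RMA (robust multi-array averaging), on a mouse array hybridised with hamster RNA, so levels of different genes were not ranked.

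Lysosomes are acidic organelles in which hydrolases break down proteins, glycans, lipids and nucleic acids delivered by endocytosis and autophagy. A vacuolar proton pump acidifies the lumen, heavily glycosylated membrane proteins line and protect it, and mannose 6-phosphate receptors carry newly made hydrolases to it. In the rodent uterus, cathepsins and their inhibitors are known from epithelium, decidual stroma, macrophages and trophoblast, where they take part in the turnover of matrix and of engulfed cells.

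Array medians ran from 4.55 to 4.57. Of the lists of cell markers, 9 of 11 stromal, 5 of 16 epithelial and 4 of 10 smooth muscle genes had a mean above 5.79, the brightest of 27 control probe sets for Bacillus transcripts, which have no hamster target, and so did 17 of the 40 lysosomal genes. None of 11 trophoblast genes did. The 27 Bacillus controls had a median of 2.68, so the brightest of them does not stand for a usual background level. The hybridisation controls, bacterial and phage RNAs added to every sample, were at 6.64 ± 0.17 (SD, n = 3) on the implantation arrays and 7.03 ± 0.27 (SD, n = 3) on the interimplantation arrays, with overlapping ranges. Scaling each array to them moved the median difference of all genes from −0.020 to 0.38, so every direction given here is relative to the bulk of the genes.

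Most of the 40 listed lysosomal genes lay slightly lower at the implantation site, and 1 of them, the cysteine protease gene Ctsb, passed the test. The other 39 did not, and none was called higher. The test was limma with Benjamini-Hochberg adjustment over all 22626 probe sets, and a gene was called at an adjusted p under 0.05. By that rule 2.54% of all genes were called, 1.18% lower and 1.36% higher, so a single call is near the background. The difference, implantation minus interimplantation, was below 0 for 33 of 40 lysosomal genes and for 56.2% of all genes, and above 0 for 7 of 40 and for 43.8%. Its median was −0.14 over the 40 lysosomal genes, −0.017 over 107 lysosomal genes outside the list and −0.020 over all genes. With scaling to the hybridisation controls the median of the lysosomal genes turned to 0.26, and that of all genes to 0.38. At an unadjusted limma p under 0.05, 13 of 40 lysosomal genes were lower and 1 was higher, where 8.67% and 6.14% of all genes were. Arrays of both groups did not overlap, with the implantation site lower, for 13 genes, and with it higher for 1, where 12.1% and 8.02% of all genes did so. These counts describe a list chosen with earlier results of these data known. In whole tissue, fewer cells of a type and less RNA per cell cannot be told apart.

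The median absolute difference of the 40 genes was 0.14 and their median standard error (SE) 0.097, and 16 genes differed by less than 0.1. The 17 genes brighter than all Bacillus controls had a median of −0.14 and the 23 dimmer ones one of −0.13, and all genes brighter than these controls one of −0.021. Of the 17, 14 were below 0, where 55.6% of all genes that bright were, and 7 were lower at an unadjusted p under 0.05, where 10.8% were. Leaving out each array in turn gave medians from −0.14 to −0.11 over the 40 genes. With each array's mean of the hybridisation controls as a covariate (the control covariate), 7 genes were lower at an unadjusted p under 0.05. By that rule 8.61% of all genes were. These controls averaged 6.64 on the implantation arrays and 7.03 on the interimplantation arrays. The covariate thus overlaps with the group, and differences from that fit are less certain. Shared probe sets are those that may match several transcripts, of the same gene or of others. Their names end in _a_at, _s_at or _x_at. Without them 8 of 30 genes were lower at an unadjusted p under 0.05, where 7.92% of all genes were.

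**Figure D1:**
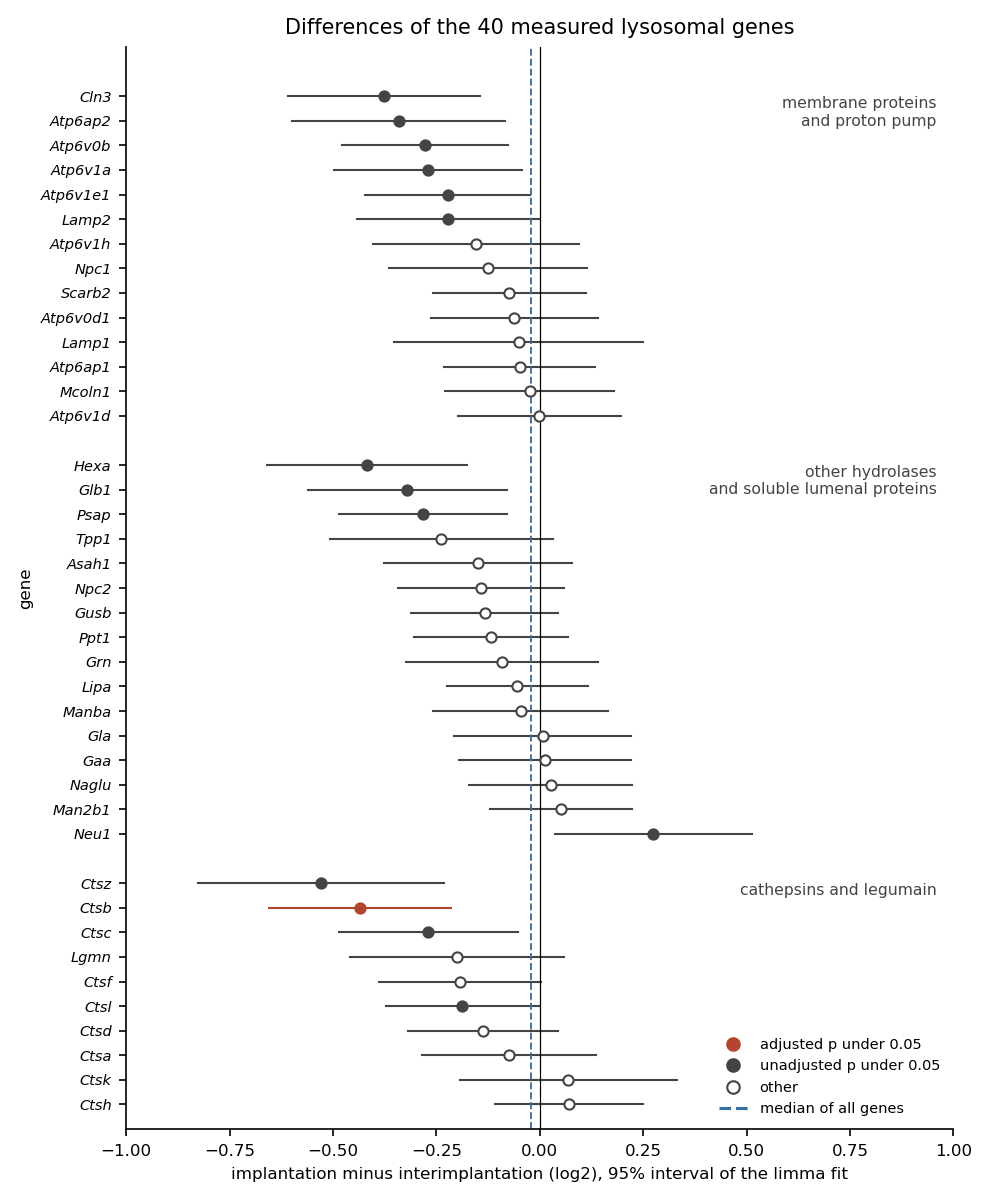
Difference between implantation and interimplantation sites (log2, x axis) of each of the 40 measured lysosomal genes (y axis), with the 95% interval of the limma fit and the genes grouped by role. Ctsb, in red, is the gene with an adjusted p under 0.05. 33 of the 40 points lie below 0, and all 14 membrane and pump genes do, relative to a median of all genes at −0.020 (dashed); scaling to the hybridisation controls moves every point up alike and leaves 3 below 0.

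Among the cathepsins and legumain, 8 of 10 differences were below 0, with a median of −0.19, 1 called lower (1.18% of all genes) and 4 lower at an unadjusted p under 0.05 (8.67% of all genes). Ctsb encodes cathepsin B, an abundant lysosomal cysteine protease. Its signal was 6.72, 6.93 and 6.82 on the implantation arrays and 7.07, 7.39 and 7.32 on the interimplantation arrays. The groups did not overlap, and the lowest interimplantation value was that of array 1. Ctsb fell by 0.43 on the log2 scale (SE 0.10, limma adjusted p = 0.0467), from 7.26 ± 0.16 to 6.82 ± 0.11 (SD, n = 3), which is 1.35-fold lower and was seen in 3 of 3 implantation arrays. This call was close to the threshold and depended on the probe set. The 3 dimmer probe sets of Ctsb were at −0.093, −0.072 and −0.025, and the mean of all 4 gave −0.16 (adjusted p = 0.488). Over 16 alternatives the adjusted p ran from 0.00907 to 0.869. The call was lost when implantation array 1, 2 or 3 was left out (giving 0.224, 0.0778 and 0.164), without interimplantation array 2 or 3 (adjusted p = 0.154 and 0.143), without shared probe sets (adjusted p = 0.0561) and after rescaling to the added controls (−0.038, adjusted p = 0.869).

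Ctsz encodes cathepsin Z, a carboxypeptidase. By its brightest probe set it was at 5.85, 5.58 and 5.93 on the implantation arrays and 6.001, 6.55 and 6.39 on the interimplantation arrays. The groups did not overlap, but interimplantation array 1 lay close to the implantation arrays. The difference of −0.53 (SE 0.14) had a limma adjusted p of 0.0733. Without interimplantation array 1 it was −0.69 and called (adjusted p = 0.00470, with a range of 0.00432 to 0.561 over 15 alternatives). A dimmer probe set of Ctsz showed a tighter separation. It was at 4.82, 4.85 and 5.07 at the implantation site and at 5.52, 5.54 and 5.49 between the sites, and fell by 0.60 (SE 0.090, limma adjusted p = 0.00432). The remaining probe set was at −0.029. All 3 count as shared by the ending of their names, and the tighter one ends in _x_at, so Ctsz has no value without shared probe sets.

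Ctsc encodes cathepsin C, a dipeptidyl peptidase that activates granule proteases of leukocytes. It was at −0.27 (limma adjusted p = 0.230), with 4.34, 4.41 and 4.43 at the implantation site against 4.87, 4.61 and 4.51 between the sites, the highest on interimplantation array 1. Without that array it was at −0.17, and with the control covariate at −0.16. Ctsl, the gene of cathepsin L, was at −0.19 (adjusted p = 0.353). Its probe set was dim, with all arrays between 3.00 and 3.33, and the groups did not overlap. Ctsf (−0.19), the aspartic protease gene Ctsd (−0.14) and Ctsb, Ctsc, Ctsl and Ctsz made up the 6 of 10 genes whose groups did not overlap with the implantation site lower, where 12.1% of all genes did so. Legumain, Lgmn, an asparagine-specific protease that processes cathepsins, was at −0.20, and Ctsa, the protective protein of other hydrolases, at −0.075, both with overlapping groups. Ctsh and Ctsk, whose product degrades collagen, were at 0.070 and 0.069, and Ctsk had the largest p of these genes (adjusted p = 0.856).

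**Figure D2:**
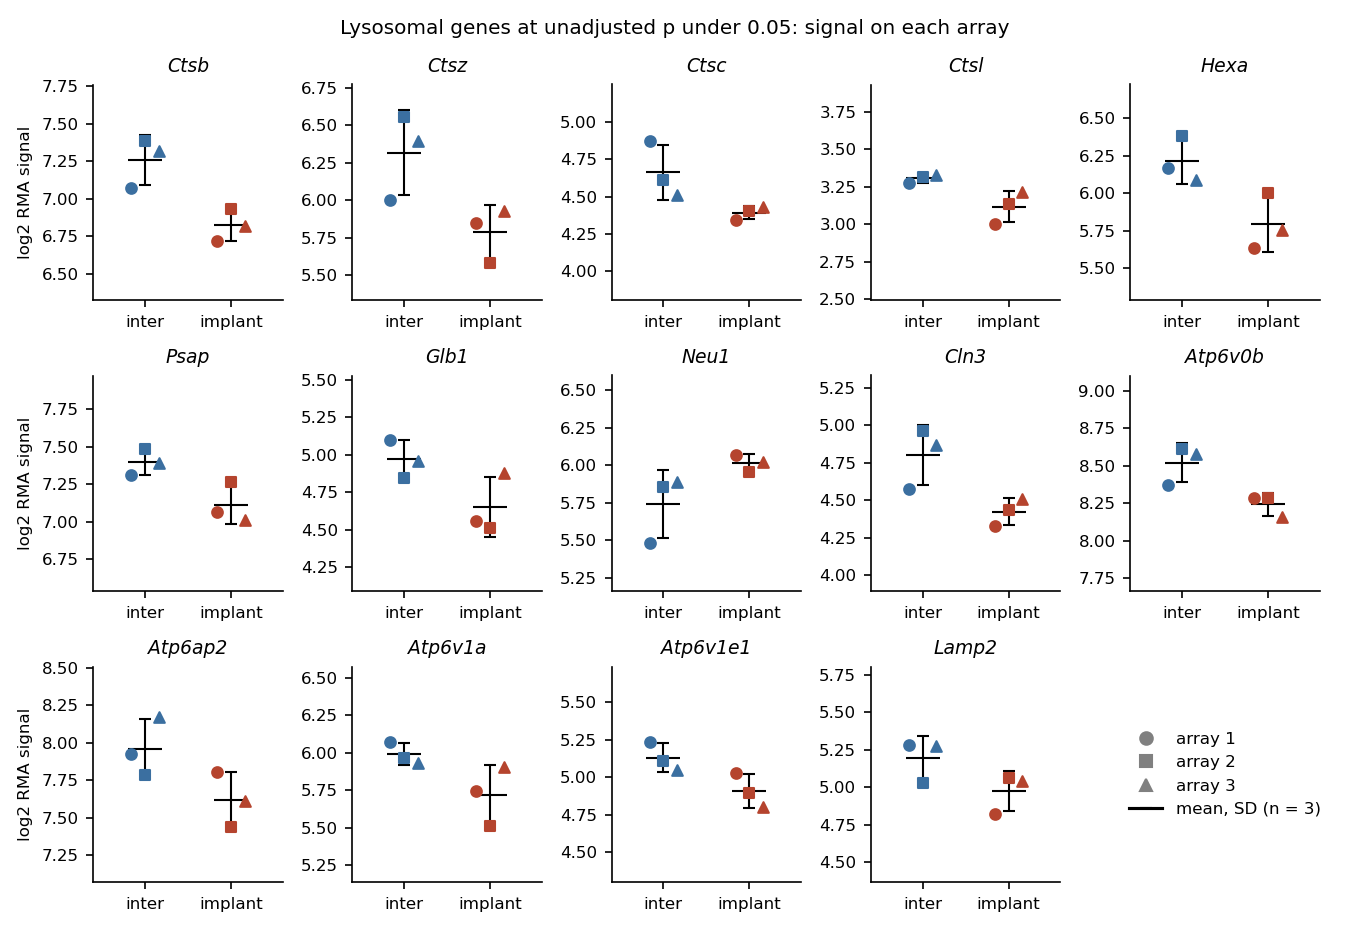
Signal (log2 RMA, y axis) on each array of the 14 lysosomal genes with an unadjusted p under 0.05, with interimplantation arrays in blue, implantation arrays in red, array numbers as symbols, and mean and SD (n = 3) as black bars; every panel spans the same range of signal. Ctsb ran from 6.72 to 6.93 at the implantation site and from 7.07 to 7.39 between the sites, and Neu1 is the gene drawn higher at the site.

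The other hydrolases and soluble proteins of the lumen were mixed, with 11 of 16 differences below 0, 5 above 0 and a median of −0.10. None passed the adjusted test, and at an unadjusted p under 0.05, 3 were lower and 1 was higher, where 8.67% and 6.14% of all genes were. The median of this group was −0.045 with the control covariate and −0.067 without implantation array 1. Hexa encodes the alpha subunit of beta-hexosaminidase, which degrades gangliosides. It was at 5.63, 6.0 and 5.76 on the implantation arrays and at 6.17, 6.39 and 6.09 on the interimplantation arrays. The groups did not overlap, although implantation array 2 came near them. The difference was −0.42 (SE 0.11, limma adjusted p = 0.0830, and 0.0353 to 0.926 over 15 alternatives), and −0.66 with the control covariate.

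Psap encodes prosaposin, the precursor of saposins, which present lipids to lysosomal enzymes. It was at 7.07, 7.26 and 7.02 at the implantation site against 7.32, 7.49 and 7.39 between the sites, a difference of −0.28 (SE 0.093, limma adjusted p = 0.170) with no overlap, and −0.46 with the control covariate. Glb1, which encodes the beta-galactosidase of the lysosome, was at −0.32 (SE 0.11, limma adjusted p = 0.190), and implantation array 3 (4.88) lay above interimplantation array 2 (4.84). With the control covariate Glb1 was at −0.086.

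Neu1 encodes the lysosomal sialidase, which acts in a complex with beta-galactosidase and the product of Ctsa. It went the other way by its brightest probe set, with 6.07, 5.96 and 6.02 at the implantation site against 5.48, 5.85 and 5.89 between the sites. The groups did not overlap, and interimplantation array 1 was the lowest by far. The difference was 0.27 (SE 0.11, limma adjusted p = 0.274), but a dimmer probe set was at −0.24 and the remaining one at 0.0024, so the probe sets of Neu1 gave no common direction. Neu1 was at 0.14 without interimplantation array 1, at 0.13 with the control covariate and at 0.014 by the mean of its probe sets.

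Tpp1, a tripeptidyl peptidase, was at −0.24 by its brighter probe set and at 0.20 by the other. The ceramidase Asah1 (−0.15), the cholesterol-binding protein Npc2 (−0.14), the beta-glucuronidase Gusb (−0.13), the thioesterase Ppt1 (−0.12), the growth factor precursor Grn (−0.092), the acid lipase Lipa (−0.055) and the beta-mannosidase Manba (−0.046) had adjusted p-values of 0.518 or more. The alpha-mannosidase Man2b1 was at 0.052, the heparan sulphate enzyme Naglu at 0.026, the acid alpha-glucosidase Gaa at 0.012 and the alpha-galactosidase Gla at 0.0070. Gla had the largest p of the group (adjusted p = 0.988, 95% interval −0.21 to 0.22). The second probe set of Man2b1 was at −0.26, so this gene too had probe sets of both signs. So did Lipa (others at 0.16 and 0.059), Gaa (−0.16) and Gla (−0.011).

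By the probe set that stood for each gene, all 14 measured membrane proteins and pump subunits of the list had differences below 0. These ran from −0.38 to −0.0010, with a median of −0.14. Dimmer probe sets of Mcoln1 (0.11), Atp6v1d (0.019) and Atp6v1e1 (0.056) lay above 0. None passed the adjusted test, and 6 were lower at an unadjusted p under 0.05, where 8.67% of all genes were. With scaling to the hybridisation controls the median turned to 0.26. Cln3 encodes a membrane protein of lysosomes that is defective in a juvenile form of neuronal ceroid lipofuscinosis. It was at 4.33, 4.44 and 4.50 on the implantation arrays and at 4.57, 4.96 and 4.87 on the interimplantation arrays. Again there was no overlap, with interimplantation array 1 nearest to the implantation arrays. The difference was −0.38 (SE 0.11, limma adjusted p = 0.106), and −0.49 and called without interimplantation array 1 (adjusted p = 0.0128, with a range of 0.0128 to 0.932 over 16 alternatives). With the control covariate it was at −0.57.

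Lamp2, a glycoprotein that covers the inner face of the lysosomal membrane and serves chaperone-mediated autophagy, was at −0.22 by its brightest probe set (SE 0.10, limma adjusted p = 0.354), at −0.15 without implantation array 1 and at −0.11 with the control covariate. All 4 of its probe sets were below 0. The one with the smallest p was dim, at 2.61, 2.87 and 2.76 at the implantation site against 3.16, 3.08 and 3.20 between the sites, and fell by 0.40 (limma adjusted p = 0.0398). The related Lamp1 was at −0.051, with interimplantation arrays from 5.62 to 6.28 that enclosed all implantation arrays. Scarb2, the sorting receptor of glucocerebrosidase, was at −0.074 by its brighter probe set and at −0.33 by the other, neither called. The cholesterol exporter Npc1 was at −0.13 and the calcium channel Mcoln1 at −0.025.

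The vacuolar proton pump is built from a membrane sector, which carries protons, and a cytosolic sector, which hydrolyses ATP. By the same probe sets, the 8 measured genes of the list for the pump and its accessory proteins were all below 0, with a median of −0.19. Of these, 4 had an unadjusted p under 0.05, where 8.67% of all genes were lower by that rule. Atp6v0b, of the membrane sector, was at 8.29, 8.29 and 8.16 on the implantation arrays and at 8.37, 8.61 and 8.58 on the interimplantation arrays. The groups did not overlap. The difference was −0.28 (SE 0.092, limma adjusted p = 0.173), and the other probe sets were at −0.32 and −0.70, of which the latter was called (limma adjusted p = 0.0377). In that probe set the interimplantation arrays ran from 6.45 to 7.15 and the implantation arrays from 6.06 to 6.36. Atp6v0b was at −0.43 both by the mean of its probe sets and with the control covariate.

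Atp6v1a, the catalytic subunit of the cytosolic sector, was at 5.74, 5.51 and 5.91 at the implantation site against 6.07, 5.97 and 5.93 between the sites, with implantation array 3 just below the lowest of the latter. The difference was −0.27 (SE 0.10, limma adjusted p = 0.255), and was −0.17 without implantation array 2 and −0.093 with the control covariate. Its dimmer probe set separated the groups further, at 4.78, 4.65 and 4.89 against 5.06, 5.32 and 5.21, and fell by 0.42 (limma adjusted p = 0.0462). Both probe sets of this subunit and all 3 of Atp6v0b were therefore below 0, with 1 of each called. All 3 of Atp6v0b, the called one included, count as shared by the ending of their names, so that gene has no value without shared probe sets. Atp6ap2, an accessory protein also known as the prorenin receptor, was at −0.34 (limma adjusted p = 0.193) with overlapping groups. It was at −0.077 without shared probe sets, at −0.15 with the control covariate and at −0.20 by the mean of its probe sets. Atp6v1e1, of the stalk, was at −0.22 by its brightest probe set (limma adjusted p = 0.290), and its other probe sets were at 0.056 and −0.077. It was at −0.081 by the mean of all 3 and at −0.077 without shared probe sets. Atp6v1h (−0.15), Atp6v0d1 (−0.061) and the accessory protein Atp6ap1 (−0.049) had adjusted p-values of 0.619 or more. Atp6v1d had the largest p of the membrane and pump genes, at −0.0010 (adjusted p = 0.998, 95% interval −0.20 to 0.20).

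Over all 73 probe sets of the 40 genes, 59 were below 0 and 14 above, and 5 were called lower and none higher, where 1.05% and 1.23% of the probe sets with 1 gene symbol were. The 5 belonged to Ctsb, Ctsz, Lamp2, Atp6v0b and Atp6v1a, and 4 of them were not the brightest of their gene. Those of Ctsz and Atp6v0b end in _x_at and that of Lamp2 in _s_at, so they count as shared. Of 21 genes with several probe sets, 12 had all of them below 0, none had all above 0 and 9 had both signs.

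**Figure D3:**
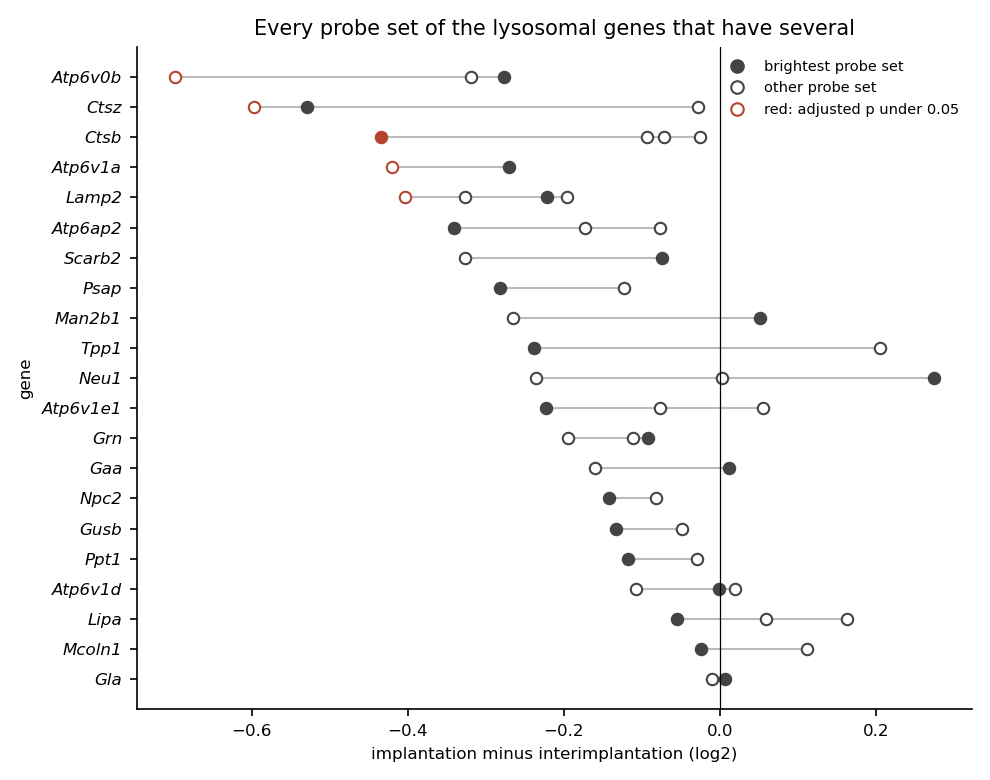
Difference between implantation and interimplantation sites (log2, x axis) of every probe set of the 21 lysosomal genes with several (y axis), as filled points for the probe set that stands for the gene, open points for the others, and red for an adjusted p under 0.05. The 5 red points belong to 5 genes and lie between −0.70 and −0.40, and the probe sets of 9 genes fall on both sides of 0; the whole axis is relative to the bulk of the genes, which scaling to the hybridisation controls shifts upward.

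The shift was also described array by array. For each array the median over the 40 genes of the signal minus the gene's mean was −0.098, −0.026 and −0.048 on implantation arrays 1 to 3 and 0.031, 0.054 and 0.091 on interimplantation arrays 1 to 3. The number of genes above their own mean was 10, 15 and 15 of 40 on the implantation arrays and 26, 26 and 30 on the interimplantation arrays. Interimplantation array 1 was the closest of its group to the implantation arrays for the cathepsins (0.0037) and the proton pump (−0.0042), but the farthest from them for the other hydrolases and lumenal proteins (0.12). For that last group implantation array 2 (0.015) lay above interimplantation arrays 2 and 3 (0.00036 and 0.012).

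**Figure D4:**
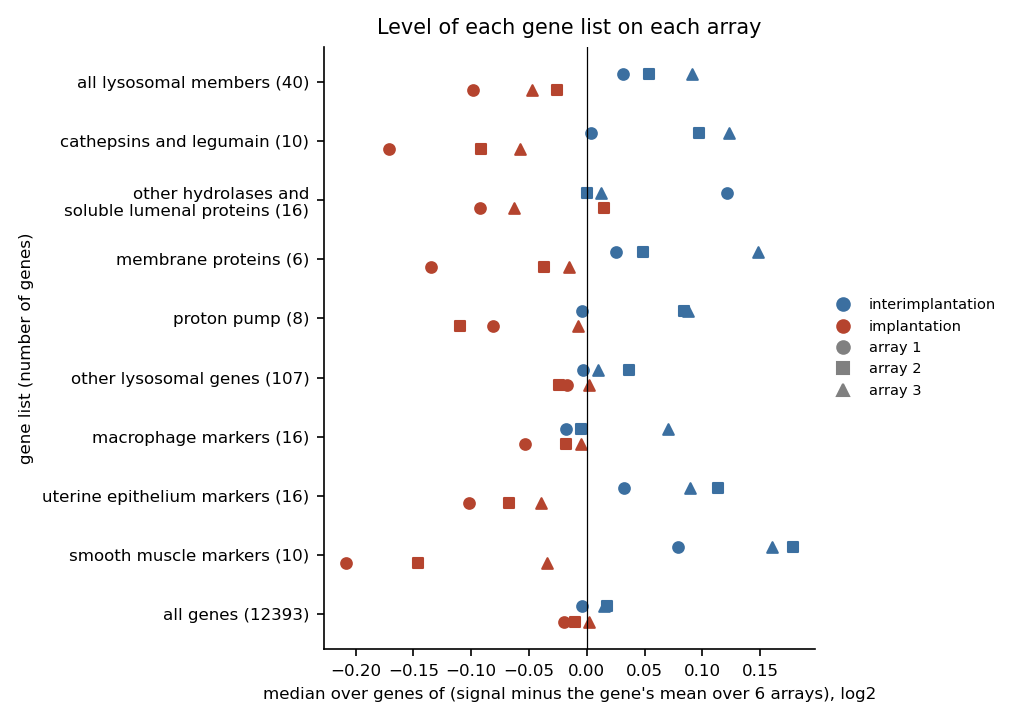
Median over the genes of a list of the signal minus each gene's mean over the 6 arrays (log2, x axis), for each array (symbols; blue interimplantation, red implantation) and gene list (y axis, number of genes in parentheses). The 40 lysosomal genes ran from −0.098 to −0.026 on the implantation arrays and from 0.031 to 0.091 on the interimplantation arrays, and the lists of uterine epithelium and smooth muscle separated the groups as well, all relative to the bulk of the genes.

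The wider lysosomal system was described with a second list. Of 133 other lysosomal genes, 107 were measured, with 65 differences below 0, 42 above 0 and a median of −0.017, close to that of all genes. At an unadjusted limma p under 0.05, 10 (9.35%) were lower and 3 higher, where 8.67% and 6.14% of all genes were. Arrays did not overlap for 13 genes (12.1%) with the implantation site lower and for 4 with it higher. Of all genes, 12.1% and 8.02% did so. Rab7, the small GTPase that directs late endosomes to lysosomes, was the single one of the 107 called. As 1.18% of all genes were called lower, 1 call among 107 is near the background. It was at 6.57, 6.38 and 6.59 at the implantation site against 6.90, 6.95 and 6.93 between the sites, with no overlap, and fell by 0.41 (SE 0.087, limma adjusted p = 0.0295). The call was lost when implantation array 1, 2 or 3 was left out (giving 0.0931, 0.112 and 0.0665) and without interimplantation array 2 or 3 (adjusted p = 0.0843 and 0.0864). It was also lost with the control covariate (adjusted p = 0.218), with the mean of its probe sets (adjusted p = 0.102) and with scaling to the controls (−0.017, adjusted p = 0.940). Among genes of sorting to the lysosome, 28 in all, the other 27 did not pass.

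Of 29 further hydrolases none was called, with a median of −0.016. The smallest p belonged to Acp5, the tartrate-resistant acid phosphatase (−0.31, limma adjusted p = 0.101), and Smpd1, the acid sphingomyelinase (−0.23, limma adjusted p = 0.272). Of 29 further membrane and pump genes none was called, with 20 differences below 0, 9 above 0 and a median of −0.052. Further pump subunits lay on both sides of 0. Atp6v1f was at −0.23 and Atp6v1b2 at −0.19, and Atp6v1c1 was at 0.073, Tcirg1 at 0.032 and Atp6v0e at 0.028. Atp6v0a1, another subunit of the membrane sector, was at −0.32 (limma adjusted p = 0.101), and Cd68, a lysosomal glycoprotein of macrophages, lay the other way at 0.38 (limma adjusted p = 0.140). Cd68 was called without interimplantation array 3 and with scaling to the hybridisation controls.

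Of 14 regulators of lysosomal genes and of the kinase complex on the lysosomal surface, none was called and 7 lay on each side of 0. The smallest p belonged to Rheb, an activator of mTOR (0.28, limma adjusted p = 0.273), and Tfec, a relative of the lysosomal transcription factor TFEB (0.22, limma adjusted p = 0.282). None of 7 protease inhibitors was called. Cst3, the secreted inhibitor of cysteine cathepsins cystatin C, was at −0.50 (limma adjusted p = 0.128) and was called without interimplantation array 1 and with array weights, and Cst6 was at −0.16 (limma adjusted p = 0.479).

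Markers of other cells moved with the lysosomal genes in part. Of 16 epithelial markers 2 fell (Cd24a at −1.99 and Cldn7 at −0.78, limma adjusted p = 6.74e-07 and 0.00868) and 15 were below 0. The summed linear signal of the list, as log2, was 9.53 to 9.64 at the implantation site and 9.84 to 9.95 between the sites. Of 10 smooth muscle markers 2 fell (Actg2 at −1.74 and Tagln at −1.26, limma adjusted p = 0.00621 and 0.00343) and 8 were below 0, with sums of 8.92 to 9.28 against 9.74 to 10.3. Neither pair of ranges overlapped. Over all genes, 1.18% were called lower and 56.2% were below 0. The part of epithelium and muscle in the differences of the lysosomal genes was not tested.

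Macrophages are rich in lysosomes, and their 16 markers gave no call. Of these, 10 were below 0 and 6 above, and the sums were 9.26 to 9.30 at the implantation site and 9.29 to 9.36 between the sites, which overlap. Csf1r, the receptor that defines the lineage, was at −0.015 (limma adjusted p = 0.958), Aif1 at −0.25 (limma adjusted p = 0.169), and Cd68 at 0.38 as above. The list shares Cd68, Ctss and Laptm5 with the other lysosomal genes, and 4 of its 16 genes were brighter than all Bacillus controls. The part of macrophages in the differences was likewise not tested.

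Of the other lists none had a call. Differences below 0 numbered 9 of 11 for stroma, 6 of 9 for endothelium and 5 of 8 for neutrophils. For natural killer and T cells there were 7 of 10 and for trophoblast 5 of 11, where 56.2% of all genes were below 0. The stromal genes with the smallest p were Hand2 at 0.58 and Vim at −0.29 (limma adjusted p = 0.0685 and 0.293), with sums of 11.4 to 11.6 against 11.5 to 11.7. For the endothelium they were Cdh5 at −0.22 and Kdr at −0.15 (limma adjusted p = 0.446 and 0.606), with sums of 8.41 to 8.46 against 8.49 to 8.54, which do not overlap. Among neutrophil genes they were Ltf at 0.22 and Cxcr2 at 0.11 (limma adjusted p = 0.323 and 0.597), with sums of 8.55 to 8.66 against 8.46 to 8.68. Among genes of natural killer and T cells they were Cd2 at −0.11 and Nkg7 at −0.10 (limma adjusted p = 0.642 and 0.773), with sums of 8.46 to 8.60 against 8.48 to 8.64. Of the trophoblast list, which holds the placental cathepsins of rodents, Elf5 was at −0.18 and the cathepsin gene Ctsr at −0.13 (limma adjusted p = 0.446 and 0.577), with sums of 6.74 to 6.78 against 6.67 to 6.83, and all 11 genes lay below the brightest Bacillus control.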

How the data were processed

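The authors made the deposited table of log2 signals, 1 value per probe set and array, with Partek 6.6 and RMA, per the submitters' processing notes. The log base is not stated there and was taken from RMA's usual output and the range of the values. RMA makes the distributions of the arrays alike, and mouse probes can bind hamster RNA poorly, so a small difference does not show an unchanged gene. The test covered 22626 probe sets, all but the 64 controls, without a filter on level. Symbols came from the platform annotation (20380 probe sets with 1 symbol, 691 with several, 1555 with none), and 38 of the 40 measured lysosomal genes had the same symbol in the hamster RefSeq table.

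Arrays were compared with limma 3.58.1 in R 4.3.3 (lmFit and eBayes, group as the only term, two-sided), with Benjamini-Hochberg adjustment over all tested probe sets. The calculation was tested on simulated data. Described with values are all called genes, those with an unadjusted p under 0.05, and the 4 smallest p-values and the largest of each role group. Of other lists, the called genes or the 2 with the smallest p are described, besides Actg2, Csf1r and some further pump subunits. Genes and lists were chosen with earlier results of these data known. Precision is limited by 3 arrays per group. Correlations of deviations from group means were −0.090, 0.071 and −0.028 for same-numbered arrays and −0.093 to 0.10 for the other pairs. With 3 arrays per group these values cannot show whether arrays share an animal, so a pairing by number remains unknown. A search of promoters was not run.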

Additional observations from a re-analysis of the deposited data

How the results depend on the processing

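The 40 lysosomal genes kept a median below 0 in every setting run except scaling to the hybridisation controls, which shifts all genes alike. With it the medians were 0.26 (all 40), 0.21 (cathepsins and legumain), 0.29 (other hydrolases and lumenal proteins) and 0.26 (membrane and pump), 0 lysosomal genes were called lower, 0 were lower and 5 higher at an unadjusted p under 0.05, and 0 other lysosomal genes were called lower and 1 higher. It turned the differences of Ctsc (0.13), Ctsl (0.21), Glb1 (0.077), Psap (0.11), Lamp2 (0.18), Cln3 (0.019), Atp6ap2 (0.055), Atp6v0b (0.12), Atp6v1a (0.13) and Atp6v1e1 (0.17). Neu1 turned to −0.24 without shared probe sets. The membrane and pump median was −0.19 without dim probe sets and also with the probe set of smallest p. The cause of these moves was not tested.

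Against 1 of 40 lysosomal genes called lower by limma, 4 were with array weights, where 3.47% of all genes were called in either direction. Without dim probe sets 2 of 28 were called (4.47% of all genes), and with the probe set of smallest p 5 of 40 (3.25%). Picking the smallest p raises the calls of any gene list. With gene means 0 of 40 were called (1.92%), and without shared probe sets 0 of 30 (1.68%). Leaving out 1 array gave 0 to 3, where 1.02% to 3.50% of all genes were called. Lower genes at an unadjusted p under 0.05, 13 in all, became 7 with the control covariate and 8 of 30 without shared probe sets. They became 9 to 13 when 1 array was left out, where 5.78% to 10.6% of all genes were lower by that rule. The 1 higher gene became 0 with the covariate, with gene means and without shared probe sets, and 0 to 1 when 1 array was left out. Other lysosomal genes called lower, 1 in all, became 2 with array weights, 0 with the covariate and 0 with gene means, and 0 to 2 when 1 array was left out. Those called higher, 0 in all, became 0 to 1. Over all probe sets, 238 lower and 284 higher calls became 363 lower with array weights, 130 and 77 with the covariate, 13 and 752 with scaling to the controls, 96 and 138 without shared probe sets, and 88 to 401 lower and 117 to 329 higher when 1 array was left out. With the replicate number as a block, 2 lysosomal genes were called lower, Ctsb and Hexa (−0.42, adjusted p = 0.0353), where 2.57% of all genes were called. Dim signal of mouse probes limits all of these values.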
